A study of Homo sapiens with 4 samples.

Results

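The placental chromosome 19 miRNA cluster was read on single-colour arrays of LAPC-4, an established line of human prostate cancer cells. Its probes were taken as the human matched miRNA probes numbered miR-512 to miR-527, whatever their letter, arm or star, which gave 49 of the 455 human matched miRNA probes. The cells had been kept for 24 hours in androgen-free medium with 10% charcoal-stripped serum, which all groups share, and then received the synthetic androgen R1881 at 0 (untreated), 0.1, 1 or 10 nM. There was 1 sample and 1 array per dose, so no dose has an error from repeated samples, and the time of exposure to R1881 is not given clearly in the labels. The study set out to find androgen-responsive miRNAs.

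MicroRNAs (miRNAs) are short RNAs that lower the output of messenger RNAs that pair with their seed, bases 2 to 8 from the 5′ end. The chromosome 19 cluster is found in primates only, is imprinted, and is transcribed from the paternal copy mainly in placental trophoblast and in early embryonic and pluripotent stem cells. In most adult tissues it is silent, and it is known to be switched on in some tumours. Its miRNAs arose by repeated duplication, so many have nearly the same sequence, and several carry a seed of the kind that promotes cell division and pluripotency.

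The annotation places nearly all of these probes in the cluster. In RefSeq (GRCh38.p14) 46 of the 49 names belonged to genes on chromosome 19. The entries of the 37 genes whose mature sequence was matched lay on the plus strand at chr19:53666679-53762430, a span of 95.8 kb. miR-513 and miR-514 belonged to genes on chromosome X, although their numbers fall in the range, and miR-526c had no gene of that name in the table. A mature sequence was found for 41 of the 49 probes. No sequence is given for miR-513, miR-514, miR-516-5p, miR-518a-2* or miR-526c, which were assigned to no single RefSeq name, nor for miR-518f, miR-522 and miR-527. The letters of the array probes themselves were not used here, and a probe name without an arm was matched to an arm by its older miRNA name.

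The 41 matched probes held 22 different seeds, and 12 of these were shared by more than 1 probe. The largest seed group is the miR-520 group, whose 3′-arm miRNAs share a seed with miR-372 and miR-373, encoded nearby on chromosome 19, and with the miR-302 family of pluripotent cells. These sequences are shown because the brightest probe of the cluster, miR-520d, is among them; all are RefSeq mature sequences, with the seed in capitals.
miR-520d: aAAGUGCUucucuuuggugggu
miR-520a: aAAGUGCUucccuuuggacugu
miR-520b: aAAGUGCUuccuuuuagaggg
miR-520c: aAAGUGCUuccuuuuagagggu
miR-520e: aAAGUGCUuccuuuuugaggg
miR-372: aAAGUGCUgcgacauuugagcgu
miR-373: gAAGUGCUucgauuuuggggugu

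A second group joins miR-519d and miR-526b* to the seed of miR-17-5p, a cell-cycle miRNA that many dividing cells express. These sequences are shown because probes on either side of the detection limit share this seed.
miR-519d: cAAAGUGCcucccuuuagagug
miR-526b*: gAAAGUGCuuccuuuuagaggc
miR-17-5p: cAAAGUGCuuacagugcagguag

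No member of the cluster rose above the detection limit on any array. A probe was counted as detected where its deposited mean spot intensity, called its reading here, exceeded the 95th percentile of the array's mismatch probes, which carry 2 mismatches to a miRNA. These limits were 118, 135.5, 138 and 143.5 intensity units from the untreated array to 10 nM. Of the 49 probes, 0 passed the limit on at least 1 array, against 136 of all 455 human probes, a background of 29.9%. The count was 0 of 46 for the probes whose gene lies on chromosome 19 and 0 of 2 for those on chromosome X. Their miRNAs were not detectable by this limit, which does not show that they were absent.

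Readings of the 49 probes lay between 74.25 and 110.5 on the untreated array, with a median of 87.2. At 0.1 nM they ranged from 70 to 114.5 with a median of 83.8, and at 1 nM from 74.5 to 109.25 with a median of 87. At 10 nM the range was 71.5 to 114.5 and the median 80.5. The 4 ranges overlapped over most of their width. The median of the mismatch probes was 84.5, 82, 87.5 and 76 in the same order, so the cluster's median differed from it by 2.75, 1.75, −0.5 and 4.5 intensity units.

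**Figure D1:**
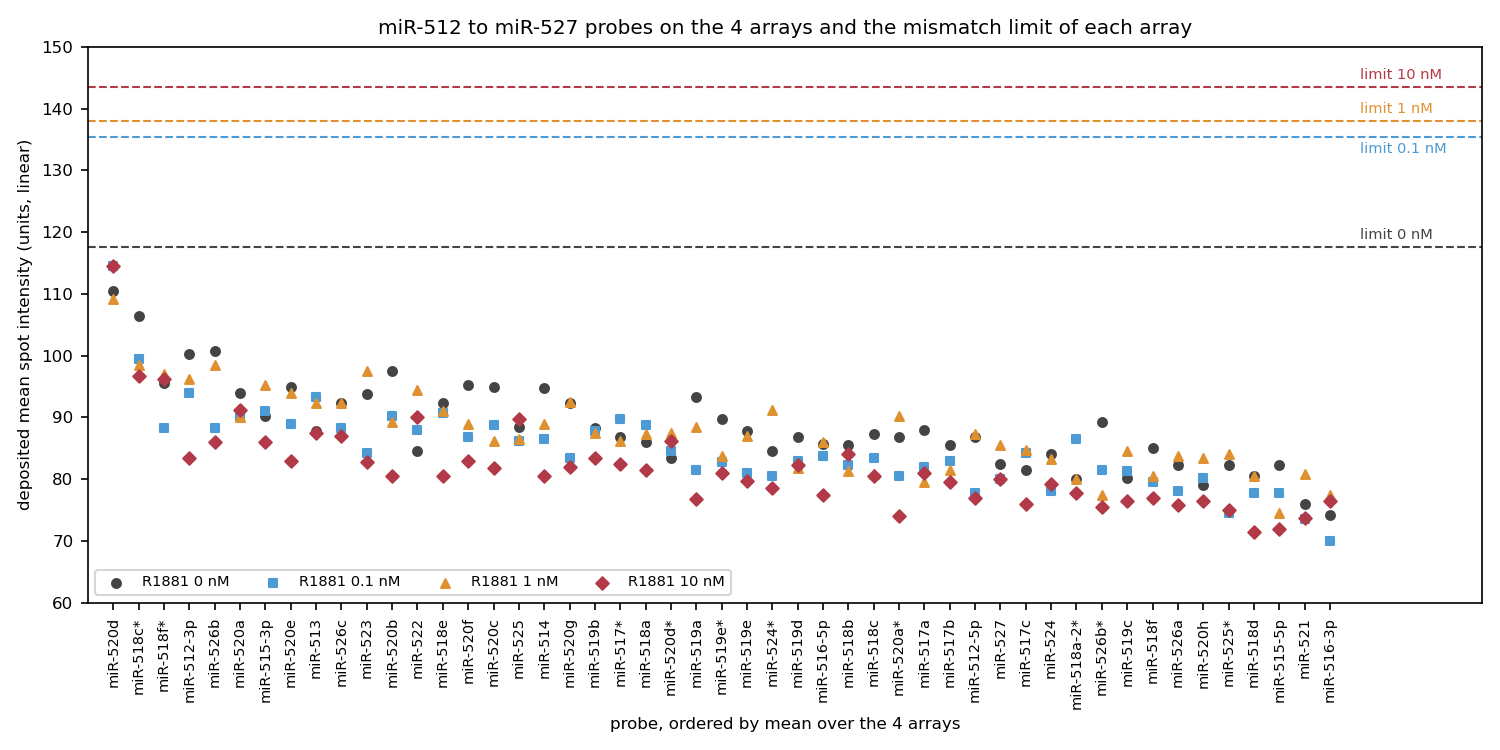
Deposited mean spot intensity (linear units) of the 49 probes numbered miR-512 to miR-527, ordered by their mean over the 4 arrays, with 1 point per R1881 dose and a dashed line for each array's limit (95th percentile of its mismatch probes). All points lie under the limit of their own array; miR-520d, at 109.25 to 114.5, stands above the other probes.

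Set against the mismatch median, the probes fell on both sides of it. On the untreated array 34 of 49 (69.4%) were brighter than that median, and 31 (63.3%), 20 (40.8%) and 41 (83.7%) were so at 0.1, 1 and 10 nM. The same shares over the other 270 human probes that never passed the limit were 68.5%, 68.1%, 55.9% and 76.7%. The shares of both sets were lowest on the array at 1 nM and highest at 10 nM.

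The deposited value table applies a stricter rule of the authors' own to the same readings. Its cutoffs lie above the limits used here, so it could hold no value for a member and is no separate evidence. That table holds, for each array, the reading minus a constant, 84.5, 82, 87 and 76, which equals the median of all 604 mismatch probes. Values were blank where the reading was under 2 times that constant, that is under 169, 164, 174 and 152. All 49 probes of the cluster were listed there and 0 had a value on any array, while 112 of the 455 human probes had one on at least 1 array.

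The brightest probe of the cluster was miR-520d, whose mature form is the 3′-arm miRNA shown first above. It read 110.5 without R1881 and 114.5, 109.25 and 114.5 at 0.1, 1 and 10 nM, under the limit by 7.12, 21.0, 28.8 and 29.0 intensity units. The limit itself rose from 118 on the untreated array to 143.5 at 10 nM. miR-520d was the brightest member on each of the 4 arrays, and its readings followed no order by dose. On the 4 arrays 6.42%, 8.33%, 15.1% and 8.68% of the mismatch probes were brighter than miR-520d. Its own mismatch probe read 89, 94, 87.5 and 79, so the matched probe was 1.24, 1.22, 1.25 and 1.45 times as bright.

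Other miR-520 probes with the same seed read lower. miR-520a read 94 without R1881 and 90, 90 and 91.25 at 0.1, 1 and 10 nM. miR-520b read 97.5, 90.25, 89.25 and 80.5. miR-520e read 95, 89, 94 and 83. For miR-520b the untreated reading was the highest and the 10 nM reading the lowest, while miR-520a varied least. The mismatch probe of miR-520b read 86, 79.5, 85 and 71, also highest without R1881 and lowest at 10 nM. miR-520c, whose mature sequence is that of miR-520b with 1 more base, ranged from 81.75 to 95.

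miR-518c* and miR-518f*, 5′-arm miRNAs of the cluster, came next after miR-520d by mean reading. miR-518c* read 106.5 without R1881 and 99.5, 98.5 and 96.75 at rising dose. It lay 11.1 units under the limit on the untreated array and 46.8 under it at 10 nM. The limit itself was 118 on the untreated array and 143.5 at 10 nM. The mismatch probe of miR-518c* read 90, 88, 86 and 81.5, so the matched probe was 1.18, 1.13, 1.15 and 1.19 times as bright. miR-518f* read 95.5, 88.25, 97 and 96.25. The untreated reading of miR-518c* was above the 3 treated ones, whereas that of miR-518f* lay inside its treated range.

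The rest of the 10 brightest by mean reading were miR-512-3p, miR-526b, miR-515-3p, miR-513 and miR-526c. Given above were miR-520d, miR-518c*, miR-518f*, miR-520a and miR-520e, while miR-520b and miR-520c ranked lower. miR-512-3p, from the gene pair at the start of the cluster, read 100.25, 94, 96.25 and 83.5 in order of dose. For miR-526b the readings were 100.75, 88.25, 98.5 and 86. Both were lowest at 10 nM. miR-515-3p read 90.25, 91, 95.25 and 86, and was also lowest at 10 nM. The median of the mismatch probes was lowest on that array too, at 76 against 82 to 87.5 on the others. miR-526c, the name without a RefSeq gene, read 92.25 on 2 arrays and 88.25 and 87 at 0.1 and 10 nM.

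The 2 miRNAs of chromosome X, which belong to a cluster known for expression in testis, did not stand apart from those of chromosome 19. miR-513 read 87.75, 93.25, 92.25 and 87.5 in order of dose. miR-514 read 94.75, 86.5, 89 and 80.5. Their means of 90.2 and 87.7 lay inside the range of means of the 46 chromosome 19 probes, 74.6 to 112. At the low end stood miR-516-3p, miR-521, miR-515-5p, miR-518d and miR-525*, with means from 74.6 to 78.9. miR-516-3p, the dimmest, read 74.25, 70, 77.5 and 76.5, which put it under every other member by its mean.

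Readings were then compared with the mismatch probe of the same miRNA, which shares nearly all of its bases and does not depend on scaling between arrays. A usable partner existed for 48 of the 49 members; that of miR-517c was listed at 0 at 1 nM. Of the 48, 19 (39.6%) were brighter than their partner on all 4 arrays, 5 (10.4%) were dimmer on all 4, and the remaining 24 were brighter on 1 to 3 arrays and dimmer or equal on the rest. Over all 432 human probes with a usable partner, 271 were brighter on all 4 arrays, a background of 62.7%, and among the 254 other undetected ones the share was 52.4%. A matched reading is the mean of 4 spots and a mismatch reading that of 2, and the difference between these shares was not tested, since probes are not replicates.

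The excess over the partner was small throughout. The mean ratio of matched to mismatch reading had a median of 1.05 over the 48 members and ran from 0.836 to 1.29, and 0 members were 1.5 times as bright on all 4 arrays, against 92 of the 432. On single arrays 32, 31, 29 and 39 of the 48 members were brighter than their partner, from the untreated array to 10 nM. The mismatch median was lowest at 10 nM, the array with the most such members, and the part this played was not tested.

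The 5 members dimmer than their own mismatch probe on all 4 arrays were miR-512-3p, miR-517a, miR-517b, miR-518a and miR-518d, named here because they form that count. miR-517a, a placental miRNA also found in maternal blood in pregnancy, read 88, 82, 79.5 and 81 against 103.5, 91, 117.5 and 88.5 for its partner. The partner of miR-518a read 87, 97.5, 110 and 108, while miR-518a itself stayed between 81.5 and 88.75. Of the mismatch partners of the members, 0 passed the limit on any array, with a highest reading of 117.5.

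**Figure D2:**
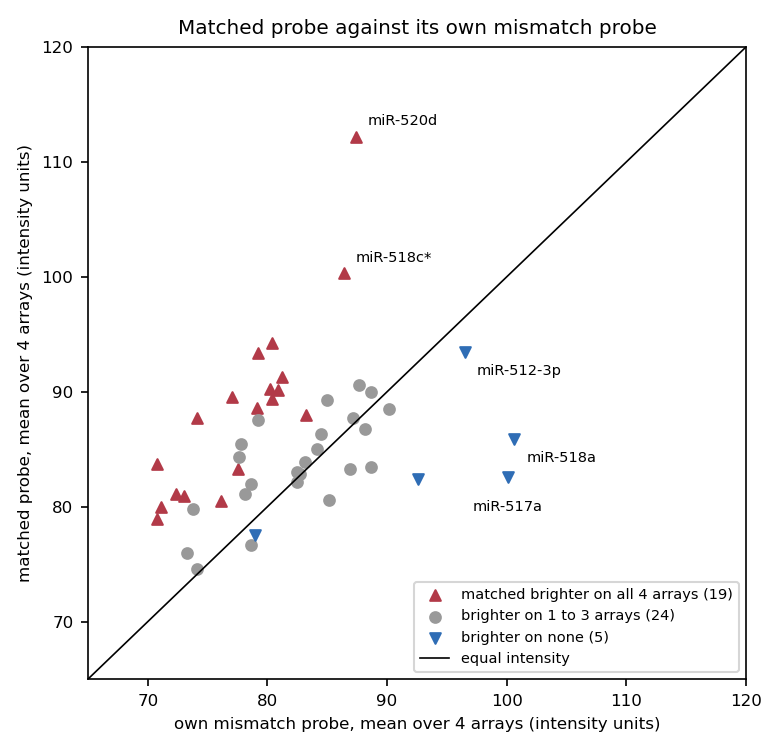
Mean reading over the 4 arrays of 48 matched probes (vertical axis, intensity units) against that of their own mismatch probes (horizontal axis, intensity units), with the line of equal intensity. Of the 48, 19 were brighter than their partner on all 4 arrays, 24 on 1 to 3 arrays and 5 on none; miR-520d lies furthest above the line.

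Probes for nearly the same miRNA could be set side by side. These sequences are shown because the first pair is the same molecule read by separate probes, the next differs from it by a base, and the last lines form the pair that differed most.
miR-517a: aUCGUGCAucccuuuagagugu
miR-517b: aUCGUGCAucccuuuagagugu
miR-517c: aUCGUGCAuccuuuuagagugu
miR-518f*: cUCUAGAGggaagcacuuucuc
miR-526a: cUCUAGAGggaagcacuuucug

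miR-517a and miR-517b have identical mature sequences in RefSeq, and their readings differed by 1 to 2.5 units on the 4 arrays. miR-517b read 85.5, 83, 81.5 and 79.5, close to the miR-517a readings above. miR-517c differs from both by C12U, counted from the 5′ end, and read 81.5, 84.25, 84.75 and 76, at most 6.5 units from miR-517a. miR-520b and miR-520c differed by at most 3 units, and miR-520b and miR-520e, which differ by A16U, by at most 4.75.

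Readings were less alike for a pair of 5′-arm miRNAs. miR-526a, which differs from miR-518f* by C22G at the last base, read 82.25, 78, 83.75 and 75.75, from 10.2 to 20.5 units under miR-518f* and on the same side on all 4 arrays. miR-520h, which is miR-520g without its last 2 bases, read 3.25 to 13.2 units under miR-520g. Each of these gaps is between separate probes, whose own background differs, and gives no order of miRNA levels.

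The order of the members was partly the same on every array. Across the 49 probes, Pearson's r between pairs of arrays ran from 0.711 to 0.843 and Spearman's rho from 0.656 to 0.793. For the 48 mismatch partners, which have no matching miRNA, r ran from 0.551 to 0.730 and rho from 0.611 to 0.769. Mean readings of members and partners had r = 0.363 and rho = 0.463 across 48 pairs, which share an array, its background and most bases. Across the 41 matched miRNAs the mean reading had r = 0.444 (rho = 0.355) with the share of G in the mature sequence, r = 0.0250 (rho = 0.0235) with the share of G and C together, and r = 0.194 (rho = 0.108) with length. These are descriptions over probes of the same 4 arrays, not over independent samples, and the sequence features were chosen after the readings were seen.

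Seed relatives outside the cluster fell on both sides of the limit. Of the 6 human probes that share the miR-520 seed, miR-302a, miR-302b, miR-302c, miR-302d, miR-372 and miR-373, 0 passed it, with readings from 77.5 to 116.25. miR-373, the brightest of these, read 106.25, 114, 116.25 and 108 in order of dose. Its own mismatch probe read 102.5, 134.5, 103 and 105.5, brighter than miR-373 at 0.1 nM. With the miR-17 seed, all 6 other human probes passed the limit on all 4 arrays. They were miR-17-5p, miR-20a, miR-20b, miR-93, miR-106a and miR-106b, and their readings ran from 403.25 to 1187.

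The cluster members with that seed stayed under the limit beside them. miR-519d, known to act on some of the targets of miR-17, read 86.75, 83, 81.75 and 82.25, and its mismatch probe read 86, 85.5, 109 and 74. miR-526b* read 89.25, 81.5, 77.5 and 75.5. miR-17-5p itself read 594, 686.75, 692.75 and 957. Probes with this seed thus lay on both sides of the limit, and what a shared seed adds to a reading was not tested.

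**Figure D3:**
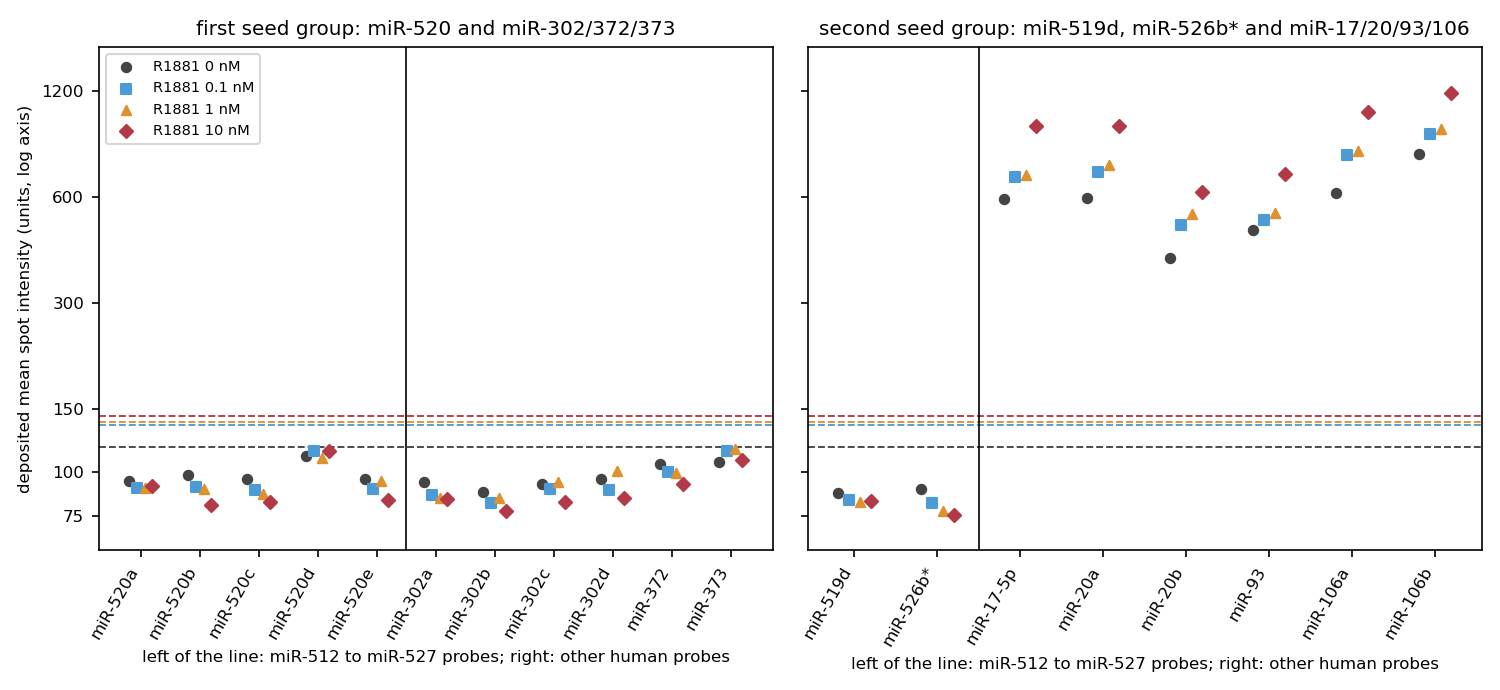
Readings (intensity units, log axis) of probes sharing a seed, 4 arrays each, with dashed lines for the array limits; cluster members are left of the vertical line in each panel. Left, the miR-520 seed, with 0 of 5 members and 0 of 6 other probes above the limit; right, the miR-17 seed, with 0 of 2 members and 6 of 6 other probes above it on all 4 arrays.

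Markers of cells that express the cluster lay under the limit too. Among 8 markers of embryonic stem and germ cells (the miR-302 family, miR-367, miR-371, miR-372 and miR-373), 0 passed the limit. Nor did any of 4 placental markers, 3 of them from that list; the other, miR-498, lies inside the chromosome 19 cluster but outside the numbered range. Its 4 readings, in order of dose, were 100.25, 90.25, 87 and 85.75. Of 10 markers of epithelium, the tissue from which such a carcinoma line derives, 8 passed the limit on at least 1 array and 7 on all 4. miR-375 passed only without R1881, where it read 140.75 against a limit of 118. At 0.1, 1 and 10 nM it read 121.75, 126.5 and 133.5, under the higher limits of those arrays (135.5, 138 and 143.5). Its mismatch probe read 85.5, 81, 79 and 76 in order of dose. Among the 7 were miR-200c at 683 to 866 and miR-141 at 341.75 to 374, whereas miR-200a and the basal-cell miRNA miR-205 passed on no array. Of 6 blood, 4 fibroblast and smooth-muscle and 4 neural markers, 0, 1 (miR-214) and 1 (miR-128a) passed.

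The doses were then compared through ratios to the untreated array, after normexp background correction and quantile normalization. Since every member lay under the limit on all 4 arrays, no fold change is given for any of them, and the ratios describe readings under that limit. The median log2 ratio of the 49 readings was −0.038, −0.042 and 0.0054 at 0.1, 1 and 10 nM, against −0.025, −0.036 and 0.00 over all 455 human probes. Members with a ratio above 0 numbered 15, 16 and 25 of 49.

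At none of the 3 doses did a member's reading differ from untreated by 1.5-fold. The count was 0 of 49 in each direction, against backgrounds of 0.659%, 0.879% and 1.32% of human probes higher and 0%, 0.44% and 0.659% lower at 0.1, 1 and 10 nM. These backgrounds are so low that a count of 0 among 49 says little about the members. Log2 ratios ran from −0.22 to 0.21 at 0.1 nM, from −0.29 (miR-518c*) to 0.18 (miR-522) at 1 nM and from −0.22 (miR-520b) to 0.25 (miR-522) at 10 nM. The treated arrays share the untreated array, so the ratios at the 3 doses are not independent.

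**Figure D4:**
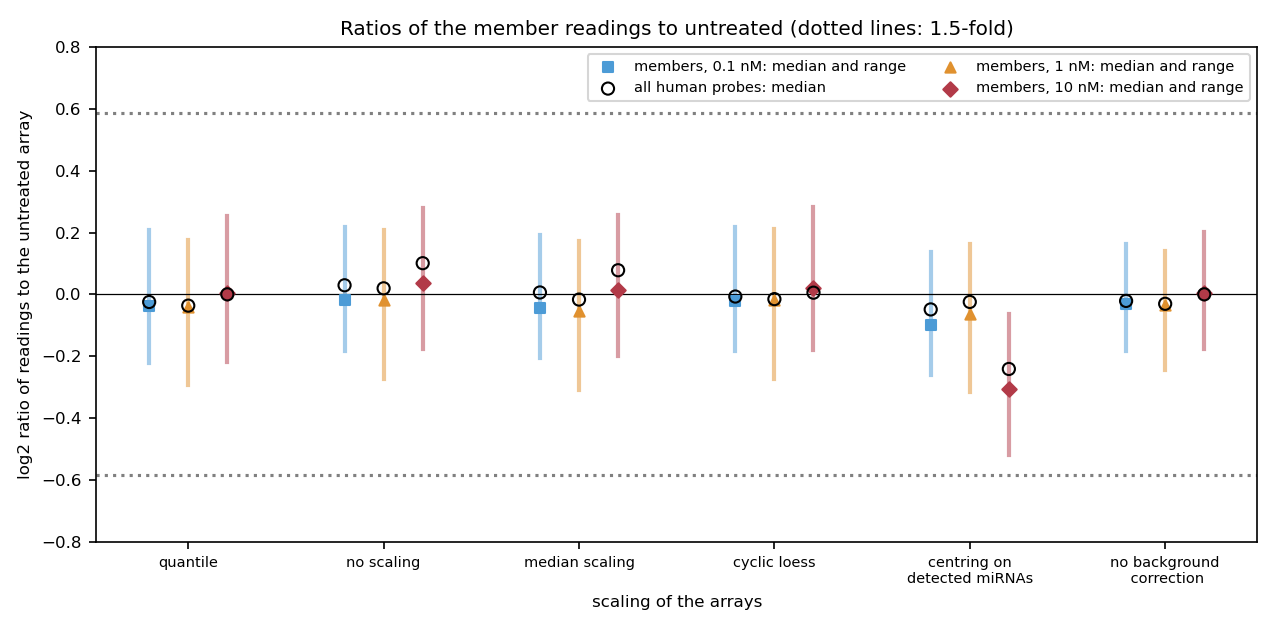
Log2 ratio of member readings to the untreated array at 0.1, 1 and 10 nM under 6 ways of scaling; filled symbols are the medians of the 49 members, bars their full range, open circles the medians of all 455 human probes and dotted lines 1.5-fold. All bars lie within 1.5-fold, and after centring on the detected miRNAs the 10 nM median of the members fell by 0.31, beside one of −0.24 over all human probes.

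A straight line over dose rank was tested with limma, which left 2 residual degrees of freedom per probe. The method also draws each probe's variance toward a value pooled over all fitted probes, which gives a moderated SE. Among the 136 detected human probes, the set the test was meant for, 0 were members, so it gives no trend for the cluster. Fitted on all 455 human probes, 0 of 49 members passed a Benjamini-Hochberg adjusted p of 0.05, against backgrounds of 1.54% with rising and 2.42% with falling slopes. Of the members 3 had an unadjusted p under 0.05, and 25 of 49 slopes were below 0. The smallest adjusted p among members was 0.207 (limma), for miR-522, whose log2 reading changed by 0.08 ± 0.03 for each step in dose (moderated SE, 4 arrays). Its readings were 84.5, 88, 94.5 and 90, highest at 1 nM. Nothing in the labels says that the 4 samples were separate cultures. These p-values set a slope against the scatter of single arrays around fitted lines, in large part borrowed from other probes. That scatter can be technical.

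The trend calls depended on scaling. With arrays centred on the median of the 136 detected human miRNAs, 7 of 49 members passed with falling slopes, against a background of 12.7% falling and 5.27% rising. They were miR-520b, miR-526b*, miR-512-3p, miR-519a, miR-520c, miR-514 and miR-515-5p, with slopes from −0.16 to −0.13 log2 units per dose step and a smallest adjusted p of 0.0242 (limma, 4 arrays). Under that centring all 49 slopes were below 0 and the median slope of all 455 human probes was −0.071. All 7 lay under the detection limit on every array. With an array at each dose, a dose effect and a difference between arrays cannot be told apart.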

How the data were processed

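Each deposited file gives a mean signal for every probe name, a linear intensity per the file headers, from 10 µg of Cy3-labelled RNA on a custom CombiMatrix array, per the labels. Their steps correspond to means of 4 spots for matched and 2 for mismatch probes. The scanner is not given in the sources used here. The authors' value table holds the same intensities minus a constant per array. Arrays were assigned by the dose in their titles. The 28 mismatch probes listed at 0 on an array were left out, which left 576 for the limit and 1378 probes for normexp correction (offset 50), quantile normalization and log2 (R 4.3.3, limma 3.58.1); the trend fit was tested on simulated data. Named were the 10 brightest and 5 dimmest members, those nearest the limit or off chromosome 19, and listed seed relatives. Members, lists and tests were chosen with earlier results of these data known. Alternatives were other limits, scalings, fold thresholds, probe filters, dose codings and leaving out arrays. The number of arrays limits the precision.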

Additional observations from a re-analysis of the deposited data

How the results depend on the processing

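The count of 0 members above the limit was the same with the 99th percentile of the mismatch probes, with the 95th percentile of the 107 virus and worm probes and on all 4 arrays. Each of these rules is stricter than the main one, so the count could not rise under them. With the 90th percentile, chosen after seeing the data, it was 2, miR-520d on 3 arrays and miR-518c* on the untreated one. The count of 19 members brighter than their own mismatch probe became 43 for at least 1 array and 0 for a 1.5-fold margin. Median log2 ratios moved with centring on the detected miRNAs to −0.098 at 0.1 nM and −0.31 at 10 nM, and with no scaling to 0.037 at 10 nM; the cause was not tested. Counts past 1.5-fold were 0 under all 5 other scalings and corrections and at 2-fold. Over all human probes, 7 members passed the trend test with centring on the detected miRNAs and 0 under the 5 others and without each array. The deposited value table and the detected-only filter gave no ratio, as 0 members had values there. No paired analysis was possible because each dose had 1 sample. Signal over background is the limit: a member under it may be present at a level these arrays cannot show.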
